A study of Mus musculus with 9 samples.

Results

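The genes of oxidative phosphorylation were read in bone marrow cells of 3 mouse strains. Members were all genes whose symbol begins with mt-, Nduf, Uqcr, Atp5, Cox4, Cox5, Cox6, Cox7 or Cox8, with Cox6a2 left out. The rule uses symbols and no measured value, and it took 101 of the 31053 genes counted, of which 13 lie on mitochondrial DNA and 88 in the nucleus. The 13 mitochondrial members are all protein-coding genes of complexes I, III, IV and V. The 88 nuclear rows stand for 87 symbols, since Atp5o is listed under 2 identifiers, and comprise 36 subunits of complex I, 8 assembly factors of complex I, 8 members of complex III, 19 of complex IV and 17 of complex V.

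Femur bone marrow was taken from 9 untreated female mice of 9 to 10 weeks, 3 of the inbred strain NZB (New Zealand Black), 3 of the inbred strain NZW (New Zealand White) and 3 of their first-generation cross NZBWF1, a strain used as a model of lupus. Both parents and the cross were bought from one supplier, delivered together and held on standard chow; the NZBWF1 libraries are titled SLE in the labels. Erythrocytes were lysed, and 1 library per mouse was made with a 3′ single-cell kit that counts molecules (UMIs) near the poly(A) tail of each transcript. Each strain is a whole genetic background, so an effect of 1 locus cannot be told apart from that of any other, nor can a mouse be told apart from its library. The study gives the cross as an NZW mother and an NZB father. Mitochondrial DNA comes from the mother, and mice sold under this name may also be of the reverse cross, with an NZB mother; which direction these mice had, and so which parent strain gave their mitochondrial DNA, was not checked here and stands behind every NZBWF1 value of a mitochondrial gene. The p-values of strain comparisons measure the spread between these mice. Those of pairs of classes measure how the difference between the classes varied from mouse to mouse.

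Oxidative phosphorylation is carried out in the inner mitochondrial membrane. Complexes I, III and IV pass electrons from NADH to oxygen and pump protons, and complex V uses the proton gradient to make ATP; complex II also feeds electrons in but pumps none. Mitochondrial DNA is inherited through the mother and transcribed as long precursors that are cut into single transcripts, so the complexes are built from products of both genomes. In marrow, erythroid cells need mitochondria for haem synthesis, while neutrophils are known to lose mitochondrial mass as they mature and to rely on glycolysis.

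Cells were put into classes by marker genes, and each class name carries the ending "-like" because no protein was measured. Of 68444 barcodes, 39051 reached 1000 UMIs and 500 genes with a mitochondrial share of no more than 10%; 37593 were left after the removal of likely doublets, and 32447 of these (86.3%) fell into 1 of 21 classes. A mouse had 2022 to 4569 cells in a class, with 6400092 to 13780962 UMIs in all. The 10 genes that led each class over all other cells held 1 to 8 of its own markers and at most 1 marker of another list. Immature neutrophil-like, large pre-B-like and pro-B-like cells had 1 of their own. Cells were gated on these markers, so the counts are no separate check of the classes. Libraries shared 557 barcode sequences, 0.821% of all. Values are UMIs summed over the cells of a class in a mouse, as a percent or as counts per 1000000 UMIs (CPM), so the mouse is the unit.

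Mitochondrial genes lie close together and partly share bases, which bears on what a 3′ count can tell apart. The stretches shown are from the + strand of mitochondrial DNA in GRCm38 (mm10), with genes placed by GENCODE vM21. The first run is the last 100 bases of mt-Nd1 (chrM:3608-3707, + strand), the member whose level differed between strains in the largest number of classes. The second (chrM:7907-7989) shows in capitals the 43 bases shared by the end of mt-Atp8 and the start of mt-Atp6, and the third (chrM:10147-10193) the 7 bases shared by mt-Nd4l and mt-Nd4.
mt-Nd1: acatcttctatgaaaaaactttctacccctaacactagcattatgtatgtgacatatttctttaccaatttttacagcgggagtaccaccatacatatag
mt-Atp8 and mt-Atp6: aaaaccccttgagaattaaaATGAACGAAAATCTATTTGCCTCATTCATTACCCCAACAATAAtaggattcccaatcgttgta
mt-Nd4l and mt-Nd4: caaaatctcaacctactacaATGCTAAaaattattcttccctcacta
Each of those pairs stays on 1 messenger RNA, so UMIs of mt-Atp8 (2604 in kept cells, against 906393 of mt-Atp6) and of mt-Nd4l (6703, against 306369 of mt-Nd4) are not independent of the longer partner. mt-Nd6 (1887 UMIs) is the single member on the other strand, overlaps the end of mt-Nd5 by 14 bases, and is known to carry little or no poly(A) tail. Which bases the reads covered was not analysed here.

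For nuclear members, RefSeq promoter windows of 300 bases (250 before the start and 50 after it, GRCm38) were matched for 71 of the 87 symbols, in 76 windows. NRF1, the GABP factors of the ETS family, and YY1 are known to bind promoters of respiratory chain genes. The letters GCGCA, any base, then GCGC (NRF1, either strand, as for all 3 motifs, which share no bases in the windows shown) were found in 18 of 76 windows (23.7%), against 4.60% of all 32851 windows. The letters CCGGAAG (ETS) were found in 16 (21.1%, against 8.86%) and AANATGGCG (YY1) in 11 (14.5%, against 2.38%). The 4 windows below belong to the complex I subunits Ndufs5 (chr4:123718137-123718436, - strand) and Ndufb7 (chr8:83566508-83566807, + strand), the complex IV subunit Cox6a1 (chr5:115348909-115349208, - strand) and Cox7a2l (chr17:83514284-83514583, - strand). They were picked after values and motifs were seen, as 3 windows with motifs from the 18 members that were higher, and that of the member that was lower, in NZB than in NZW monocyte-like cells. In the 18 windows of the 16 of those higher members that were matched the NRF1 letters were found in 3 (16.7%), the ETS letters in 3 (16.7%) and the YY1 letters in 4 (22.2%). Capitals mark the searched letters.
Ndufs5: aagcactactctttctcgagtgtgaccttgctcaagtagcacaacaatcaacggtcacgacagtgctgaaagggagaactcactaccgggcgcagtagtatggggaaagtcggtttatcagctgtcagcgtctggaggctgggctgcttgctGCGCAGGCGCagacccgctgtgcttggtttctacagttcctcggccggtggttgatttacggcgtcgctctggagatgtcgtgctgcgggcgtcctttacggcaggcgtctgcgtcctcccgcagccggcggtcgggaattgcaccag
Ndufb7: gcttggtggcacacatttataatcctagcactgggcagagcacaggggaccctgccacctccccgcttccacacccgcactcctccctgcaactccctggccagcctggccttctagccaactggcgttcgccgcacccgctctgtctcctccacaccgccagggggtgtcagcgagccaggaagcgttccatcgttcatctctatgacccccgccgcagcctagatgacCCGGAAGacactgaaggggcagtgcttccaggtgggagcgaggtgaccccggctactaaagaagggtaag
Cox6a1: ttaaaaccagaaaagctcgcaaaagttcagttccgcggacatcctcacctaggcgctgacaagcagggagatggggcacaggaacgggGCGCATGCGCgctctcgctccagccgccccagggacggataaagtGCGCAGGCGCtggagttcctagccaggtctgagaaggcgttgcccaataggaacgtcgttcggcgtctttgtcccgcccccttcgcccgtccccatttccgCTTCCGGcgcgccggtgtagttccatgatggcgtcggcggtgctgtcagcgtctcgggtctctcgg
Cox7a2l: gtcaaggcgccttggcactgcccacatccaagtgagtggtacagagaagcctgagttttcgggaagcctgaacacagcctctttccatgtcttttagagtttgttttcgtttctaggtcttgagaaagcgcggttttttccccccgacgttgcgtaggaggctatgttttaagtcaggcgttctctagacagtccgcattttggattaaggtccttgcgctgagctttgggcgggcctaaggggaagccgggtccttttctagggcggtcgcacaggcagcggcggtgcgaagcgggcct
The Ndufs5 window holds the NRF1 letters 98 bases before the start, the Ndufb7 window the ETS letters 20 bases before it. The Cox6a1 window holds the NRF1 letters 162 and 117 bases before the start and the ETS letters on the reverse strand (CTTCCGG) 16 bases before it. The Cox7a2l window holds none of the 3 motifs. In all 4 windows the RefSeq start lies inside the gene as vM21 annotates it. The ETS letters of Ndufb7 and of Cox6a1 lie inside the annotated gene as well. A match is a stretch of letters, not a measured site.

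The share of UMIs that came from the members differed widely between cell classes. The mitochondrial share was lowest in immature neutrophil-like cells, 0.973% ± 0.219 (SD, n = 9 mice), and highest in mature B-like cells, 6.54% ± 0.275 (n = 9). The nuclear share was lowest in plasma-like cells, 0.740% ± 0.0845 (n = 5 with at least 10 cells), and highest in early erythroid-like cells, 2.85% ± 0.121 (n = 9). Over the 19 classes with at least 3 mice the shares had a Pearson r of 0.681 and a Spearman rho of 0.432, points that share their libraries and totals. The order at the ends depended on the setting. Plasmacytoid dendritic-like cells, at 6.40% ± 0.494 mitochondrial, overlapped with mature B-like cells. With the 30 most abundant nuclear genes of each class and the globins left out of the totals, mature neutrophil-like cells were the lowest for both genomes (2.39% and 1.78%). With a mitochondrial limit of 5%, the mitochondrial share was 4.51% in stem-like (n = 4), 4.49% in small pre-B-like (n = 3) and 4.48% in mature B-like cells (n = 5). With each cell thinned to 1000 UMIs, the mitochondrial share was 6.52% in plasmacytoid dendritic-like cells, and the shares of both genomes were 0.922% and 0.927% in immature neutrophil-like, 5.57% and 2.59% in GMP-like and 6.498% and 1.48% in mature B-like cells.

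The neutrophil classes had low shares of member UMIs among all UMIs. Granulocyte-monocyte precursor-like (GMP-like) cells held 5.58% ± 0.499 mitochondrial and 2.64% ± 0.220 nuclear member UMIs. In dividing neutrophil precursor-like cells the shares were 1.69% ± 0.195 and 1.33% ± 0.0399, below the GMP-like value in 9 of 9 mice for both genomes. Immature neutrophil-like cells were lower again in 9 of 9 mice, at 0.973% and 0.945% ± 0.0542. Mature neutrophil-like cells, at 1.27% ± 0.604 and 0.914% ± 0.196, were not set apart from the immature ones, whose mitochondrial share was the higher in 3 of 9 mice and nuclear share in 6 of 9. The 30 most abundant genes of each class together with the globins took 61.2% of the immature neutrophil-like UMIs. With those genes left out of the total, the immature neutrophil-like shares were 2.50% and 2.43%, against 7.17% and 3.38% in GMP-like cells. The dividing neutrophil precursor-like shares were then 3.72% and 2.92%, against 4.95% and 2.86% in monocyte-like cells. The immature neutrophil-like nuclear share was then above the 1.85% of mature B-like cells. The rank of these classes for nuclear members thus depended on the total.

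Shares in the B lineage differed by stage. Pro-B-like (5.19% mitochondrial, 2.25% nuclear) and large pre-B-like cells (5.69%, 2.46%), the latter gated as dividing, had higher nuclear shares than small pre-B-like (6.24%, 1.93%) and mature B-like cells (1.49% ± 0.0903 nuclear). The nuclear share was higher in large pre-B-like than in mature B-like cells in 9 of 9 mice, by 0.975 ± 0.107 percentage points, while the mitochondrial share was lower in 9 of 9. In mature B-like cells this gave 4.42 mitochondrial UMIs for each nuclear member UMI, the highest ratio of the classes, against 1.02 in immature neutrophil-like cells. Plasma-like cells had 1.81% ± 0.174 and 0.740%, below mature B-like cells in 5 of 5 mice for both genomes. Their 30 most abundant genes, with the globins, held 75.7% of their UMIs, and without those genes the plasma-like shares were 7.44% and 3.04%, against 8.12% and 1.85% in mature B-like cells, so that the order for nuclear members turned with the total.

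Erythroid, dendritic and lymphoid classes differed in the balance between the genomes. Early erythroid-like cells (5.74% ± 0.203 and 2.85%) exceeded erythroblast-like cells (5.03% ± 0.281 and 2.69%) in 6 of 6 mice for both genomes. With the abundant genes and the globins left out of the totals, the nuclear shares were close. They were 3.46% ± 0.160 in early erythroid-like (n = 9) and 3.41% ± 0.126 in erythroblast-like cells (n = 6). Plasmacytoid dendritic-like cells had a higher mitochondrial share than monocyte-like cells in 9 of 9 mice (6.40% against 4.14% ± 0.282) and a lower nuclear share in 9 of 9 (1.87% against 2.39% ± 0.147). T-like cells had a higher mitochondrial share than NK-like cells in 9 of 9 mice (5.51% against 4.91%), with the nuclear share higher in 1 of 9. The 10% limit caps these values: it took away a mean of 15.1% of early erythroid-like barcodes, 12.3% of erythroblast-like ones (0 to 31.4% by mouse), 4.83% of mature B-like ones and at most 0.434% of any neutrophil class. Without it the mitochondrial shares were 6.63% ± 0.590 in early erythroid-like, 5.94% ± 1.51 in erythroblast-like and 6.95% in mature B-like cells.

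**Figure D1:**
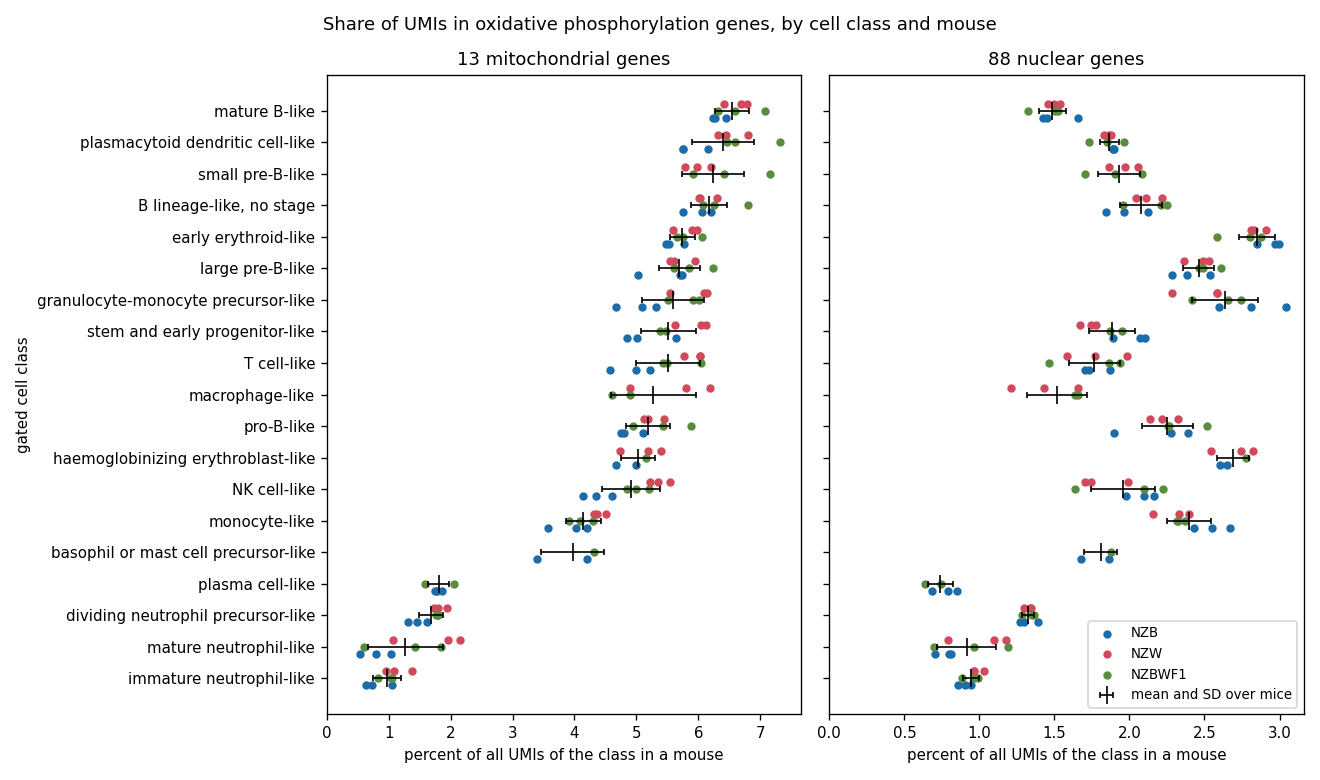
Percent of UMIs from the mitochondrial members and from the nuclear members (horizontal axes) in each cell class, 1 point per mouse coloured by strain, with the mean over mice. Mitochondrial shares run from 0.973% in immature neutrophil-like cells to 6.54% in mature B-like cells, and nuclear shares from 0.740% in plasma-like to 2.85% in early erythroid-like cells, in a different order of classes; bars show the SD.

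Single members were then compared between classes of the same mice, with the mouse as a block and a call at an adjusted p under 0.05 and at least 1.5-fold (edgeR, adjusted over all genes tested). Between dividing neutrophil precursor-like and mature neutrophil-like cells (9 mice), 47 of 73 nuclear members tested fell and 1 rose, where 54.9% of all genes tested were called and 29.5% fell. The median log2 fold change of the nuclear members was -0.75, against -0.10 over all genes. Falls were found in every group of subunits: 24 of 36 in complex I, 5 of 8 in complex III, 8 of 12 in complex IV, 8 of 15 in complex V, and 2 of 2 assembly factors. Of 11 mitochondrial members 4 fell, mt-Co3 by 0.83 on the log2 scale (adjusted p = 0.000121), mt-Co2 by 0.77, mt-Atp6 by 0.60 and mt-Cytb by 0.59.

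The assembly factor Ndufaf3 went from 54.6 ± 5.35 CPM in the dividing to 12.1 ± 12.3 CPM in the mature class (log2 fold change -2.24, SE 0.318, adjusted p = 3.26e-07), on 15 UMIs in the latter. Ndufv2, an iron-sulfur subunit of the NADH-oxidizing arm of complex I, went from 113 ± 10.9 to 35.3 ± 18.6 CPM (-1.61). The single nuclear member that rose was Ndufa7, a subunit of the same arm, from 72.0 ± 5.11 to 120 ± 33.7 CPM (log2 fold change 0.65, adjusted p = 0.000592). All 3 genes for the c subunit of complex V fell: Atp5g1 by 1.14, Atp5g2 by 1.24 and Atp5g3 by 0.94 on the log2 scale, though how shared reads of these copies were counted is uncertain. Outside the members, 2 of 4 genes listed as cytochrome c and its partners fell (Cycs, and Cyc1 of complex III). Of 10 genes of the tricarboxylic acid cycle 3 fell, close to the 29.5% of all genes that fell. Of 13 glycolytic genes 2 rose and 1 fell, where 54.9% of all genes were called either way. Junb, Malat1 and Neat1, from a list on RNA quality and handling, rose 3 of 3 with a median of 2.89; their part in the result was not tested.

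Between large and small pre-B-like cells (3 NZW and 3 NZBWF1 mice), 30 of 75 nuclear members fell and 1 rose, where 37.8% of all genes were called and 21.8% fell. With a mitochondrial limit of 5% in place of 10%, 8 fell. Of 13 mitochondrial members 0 were called by edgeR and 0 by DESeq2, with 2 at an unadjusted p under 0.05. The nuclear median was -0.53, against -0.07 over all genes. Ndufv1, which binds NADH in complex I, fell by 1.70 on the log2 scale (29.8 ± 18.0 CPM in small pre-B-like cells, on 14 UMIs; adjusted p = 8.25e-06). Ndufaf2 (-1.62, on 6 UMIs) and Ndufa9 (-1.37, on 15 UMIs) followed, and Atp5g1 fell by 1.31 (adjusted p = 2.45e-11). Cox7a2l, which takes part in joining complexes III and IV into supercomplexes, was the member that rose, with 845 ± 146 CPM in small and 468 ± 60.1 CPM in large pre-B-like cells (log2 fold change 0.76, adjusted p = 3.97e-08). Of the pathway lists, 8 of 9 glycolytic genes, 5 of 12 tricarboxylic acid cycle genes and 2 of 4 complex II genes fell. The list on RNA quality and handling rose 4 of 4, and its summed level was 17553 to 26588 CPM in small against 4495 to 6275 CPM in large pre-B-like cells, a difference whose part in the result was not tested.

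In erythroblast-like against early erythroid-like cells (6 mice), 5 of 79 nuclear members fell and none rose, where 26.8% of all genes were called and 14.1% fell; the nuclear median was 0.02. The 5 were Atp5g2, from 757 ± 68.8 to 337 ± 33.2 CPM (-1.05, adjusted p = 2.22e-18), Atp5g1 (-0.59), the complex III core subunit Uqcrc2 (-0.60) and the assembly factors Ndufaf4 (-1.44) and Ndufaf8 (-0.78). Among mitochondrial members mt-Nd4l was called (-0.87). Glycolytic genes fell in 6 of 10, tricarboxylic acid cycle genes in 3 of 13 and membrane carriers in 3 of 6.

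Monocyte-like cells were higher than mature neutrophil-like cells (9 mice) for 49 of 74 nuclear members, with 1 lower, where 61.5% of all genes were called and 37.8% were higher, and for 11 of 11 mitochondrial members. The medians were 0.88 for nuclear members, 1.14 for mitochondrial members and 0.32 for all genes, and with library totals as the scale 1.74, 1.98 and 1.18. The complex I subunits Ndufs3 (2.05) and Ndufb5 (1.96) and Atp5g1 (2.03) had the largest differences. Ndufb5 stood at 304 ± 10.0 CPM in monocyte-like and 49.4 ± 31.1 CPM in mature neutrophil-like cells. Ndufa13 was lower by the fit (log2 fold change -0.60, adjusted p = 0.000182) but higher with library totals as the scale (0.24). With TMM scaling 9 of 12 tricarboxylic acid cycle genes were higher and Mdh2 lower, and 9 of 13 glycolytic genes were lower.

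Plasma-like against mature B-like cells (3 NZB and 2 NZBWF1 mice, since no NZW mouse had 10 plasma-like cells) depended on the scale. With TMM scaling 43 of 60 nuclear members were higher and none lower (58.2% of all genes were called, 25.8% higher), whereas with library totals 2 were higher and 55 lower. The nuclear median was 0.93 by TMM and -1.34 by totals, and that of all genes -0.13 and -2.42. The nuclear median lay above that of all genes under both scales. Of 11 mitochondrial members 0 were called by edgeR and 0 by DESeq2, with 4 at an unadjusted p under 0.05, and 11 were lower with library totals. Ndufa1, a small complex I subunit, had 186 ± 29.2 CPM in plasma-like and 72.9 ± 42.8 CPM in mature B-like cells and a TMM log2 fold change of 3.33. Ndufv3 followed with 3.01 by TMM. Ndufs5 was higher by TMM (1.82) and lower by totals (-0.48), at 109 ± 23.7 and 123 ± 26.9 CPM.

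**Figure D2:**
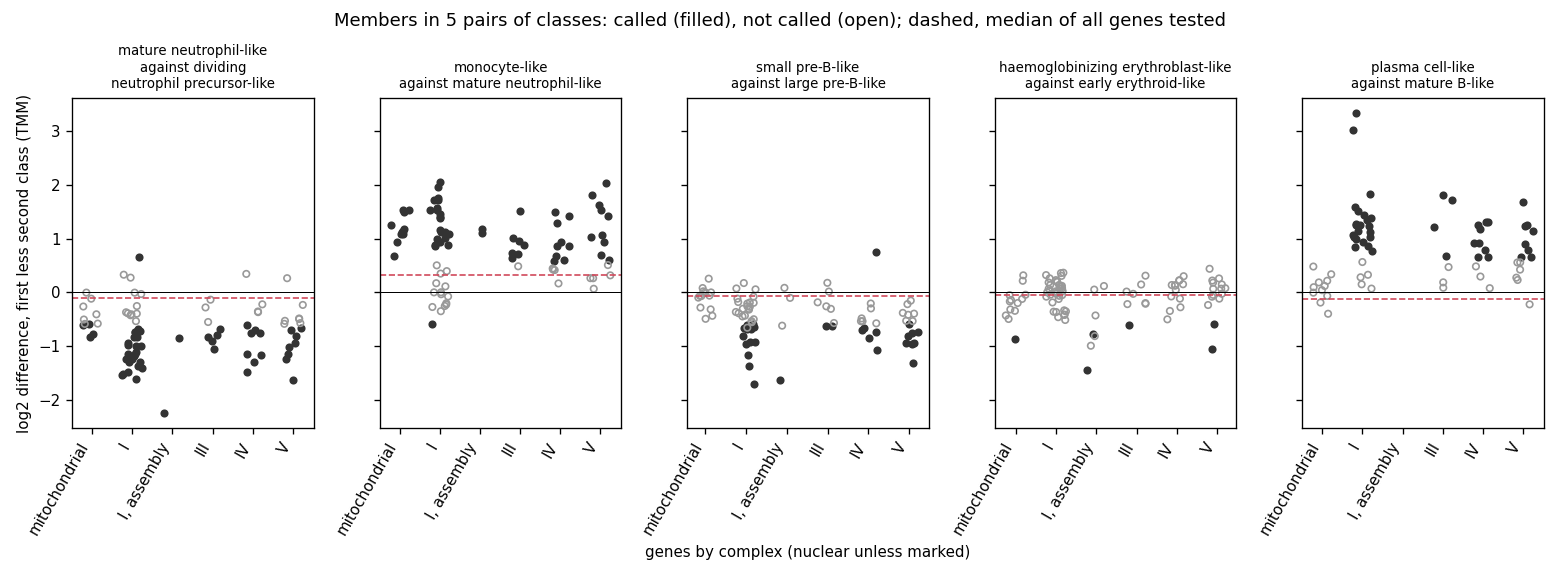
Log2 fold change of each tested member (vertical axis, 1 point per gene, filled where called) in 5 pairs of classes, 1 panel each, with members grouped by complex along the horizontal axis and the median of all genes dashed, from edgeR with TMM scaling. Nuclear members lie mostly below 0 in mature neutrophil-like against dividing precursor-like and in small against large pre-B-like cells, and around 0 in erythroblast-like cells, with medians of -0.75, -0.53 and 0.02.

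Most members listed for restricted expression were rare. Cox4i2, Cox7b2, Cox8b, Cox8c and Ndufa4l2 had 0 to 12 UMIs over all kept cells and were tested in no class, and Cox7a1 had 124 UMIs. In all, 94 of the 101 members passed the filter on low counts in at least 1 of the 14 classes compared between strains, and 58 (10 mitochondrial and 48 nuclear) in every class. Cox6b2, the testis form of a complex IV subunit, passed that filter in 7 of the 14 classes and had a UMI in 9.83% of kept cells. It stood at 198 ± 33.3 CPM in early erythroid-like and 144 ± 35.8 CPM in erythroblast-like cells, 121 ± 132 CPM in basophil or mast precursor-like cells (n = 3), 50.9 ± 21.5 CPM in stem-like, 47.6 ± 4.84 CPM in GMP-like and 39.1 ± 7.79 CPM in monocyte-like cells, and from 0 to 28.1 CPM in the other classes with at least 3 mice. Atp5g1 ran from 45.2 ± 19.8 CPM in immature neutrophil-like to 958 ± 76.1 CPM in early erythroid-like cells, a wider span than Cox6a1, which ran from 113 CPM in plasma-like to 499 CPM in erythroblast-like cells.

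The strains were compared in the 14 classes that had at least 2 mice of each strain with 10 cells or more (edgeR, adjusted p under 0.05 over all genes of a class). Between NZB and NZW, 33 of 164 fits of a mitochondrial member in a class were called (20.1%), 31 of them lower in NZB, where 8.38% of all fits were called. Of 1014 fits of a nuclear member 36 were called (3.55%), 25 higher and 11 lower. Between NZBWF1 and NZB, 6 mitochondrial fits, all higher in NZBWF1, and 17 nuclear ones, 15 lower, were called (3.73% of all fits). Between NZBWF1 and NZW, 9 mitochondrial fits, 8 lower in NZBWF1, and 0 nuclear fits were called (1.18% of all fits). By DESeq2 0 nuclear fits were called as well, and by edgeR 37 nuclear fits had an unadjusted p under 0.05. All 8 lower fits were of mt-Nd1, as were 13 of the 33 mitochondrial calls between NZB and NZW. The classes come from the same mice, so fits of 1 gene in several classes are not independent. Every NZB mouse lay below every NZW mouse in CPM for 56 of 164 mitochondrial fits (34.1%) and 100 of 1014 nuclear fits (9.86%), where 13.9% of all fits did. Of those 56 fits 14 were of mt-Nd1. Every NZB mouse lay above every NZW mouse for 12 mitochondrial (7.32%) and 125 nuclear fits (12.3%), where 10.8% of all fits did. Reads of all strains were counted on the same build, mm10. Whether sequence variants of a strain changed the reads counted for a gene was not tested. The study reports a lower mean cell viability for NZB than for NZW and NZBWF1, and its part in the strain differences was not tested.

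mt-Nd1, which encodes a membrane subunit of complex I, was the member that differed in the most classes. In monocyte-like cells it stood at 1592, 1552 and 1403 CPM in the 3 NZB mice, at 2422, 2548 and 2228 CPM in NZW and at 1715, 1557 and 1606 CPM in NZBWF1. All NZB and NZBWF1 mice were below all NZW mice, and NZBWF1 overlapped with NZB. The log2 fold change was -0.65 (SE 0.0946, adjusted p = 4.04e-06) for NZB against NZW and -0.59 (adjusted p = 0.000208) for NZBWF1 against NZW, both by edgeR.

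The same order was found in progenitors. In GMP-like cells mt-Nd1 was at 2037, 2034 and 1992 CPM in NZB, 3235, 3509 and 3064 CPM in NZW, and 2136, 2129 and 2396 CPM in NZBWF1 (NZB against NZW -0.79, adjusted p = 2.66e-07). In stem and early progenitor-like cells it was at 1872, 1135 and 1457 CPM in NZB, 2268, 2558 and 2615 CPM in NZW, and 1312 and 1527 CPM in the 2 NZBWF1 mice with enough cells (-0.86, SE 0.136, adjusted p = 5.63e-08). Again the NZW mice did not overlap with the others.

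Lymphoid classes followed. In NK-like cells mt-Nd1 was at 1650, 1430 and 1412 CPM in NZB, 2806, 2954 and 2979 CPM in NZW, and 1794, 1997 and 1908 CPM in NZBWF1 (NZB against NZW -0.98). In mature B-like cells it was at 2641, 2363 and 2777 CPM in NZB, 3238, 3697 and 3733 CPM in NZW, and 2628, 2573 and 2558 CPM in NZBWF1 (-0.42, adjusted p = 0.0458). The NZW mice lay above all others, but the call was lost without NZB 1, NZB 2, NZW 2 or NZW 3.

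Neutrophil-like cells had the largest fitted differences at the lowest levels. Immature neutrophil-like cells held 118, 136 and 108 CPM of mt-Nd1 in NZB, 280, 427 and 301 CPM in NZW, and 155, 215 and 264 CPM in NZBWF1 (-1.28, adjusted p = 0.0043). In mature neutrophil-like cells the values were 92.9, 218 and 185 CPM in NZB, 345, 1329 and 999 CPM in NZW, and 133, 592 and 572 CPM in NZBWF1. The mouse numbered 1 was the lowest of each strain, and the log2 fold change of -2.15 (SE 0.639, adjusted p = 0.142) was not called. It was called under 5 of 21 alternatives: at least 2 markers (adjusted p = 0.0412), DESeq2 (adjusted p = 0.0196), no filter on low counts (adjusted p = 5.69e-06), without NZBWF1 1 (adjusted p = 0.0202) and the replicate block (adjusted p = 9.8e-06, with a log2 fold change of -2.11 and SE 0.244). Over all 21 the values ran from -2.84 to -1.57, with adjusted p up to 0.416.

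Over the 14 classes the fitted mt-Nd1 difference between NZB and NZW was below 0 in all, with a median of -0.78 and a range from -2.15 to -0.42, and was called in 13. The NZB mice were all below the NZW mice in CPM in 14 of 14 classes, and the NZBWF1 mice all below the NZW mice in 12 (5.68% of all fits). The NZBWF1 mice were all above the NZB mice in 7 of 14 classes (12.5% of all fits), GMP-like cells among them, so that in these classes NZBWF1 did not overlap with NZB. NZBWF1 against NZW was called in 8 classes (NK-like, T-like, early erythroid-like, GMP-like, mature B-like, monocyte-like, plasmacytoid dendritic-like and stem-like), and NZBWF1 against NZB in 0 classes by edgeR and 0 by DESeq2, with 5 at an unadjusted p under 0.05 and 12 of 14 fitted above 0. Of 770 genes tested in all 14 classes, 17 were called between NZB and NZW in at least 10 classes and 12 in at least 12. The call in the B-lineage-like cells without a stage was lost without any single NZB or NZW mouse.

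As a share of the mitochondrial UMIs of a mouse, mt-Nd1 took 4.02, 3.68 and 4.20% in NZB, 5.66, 6.38 and 5.79% in NZW, and 4.32, 4.14 and 4.29% in NZBWF1, over all kept cells. The order held in barcodes outside the classes. In barcodes above the 10% limit the share was 4.90, 4.09 and 4.26% in NZB, 6.60, 6.49 and 6.63% in NZW, and 4.48, 4.43 and 5.05% in NZBWF1. In barcodes with fewer than 100 UMIs, which hold free RNA, it was 3.09, 2.54 and 2.70% in NZB, 3.55, 4.25 and 3.65% in NZW, and 3.28, 2.61 and 3.04% in NZBWF1.

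**Figure D3:**
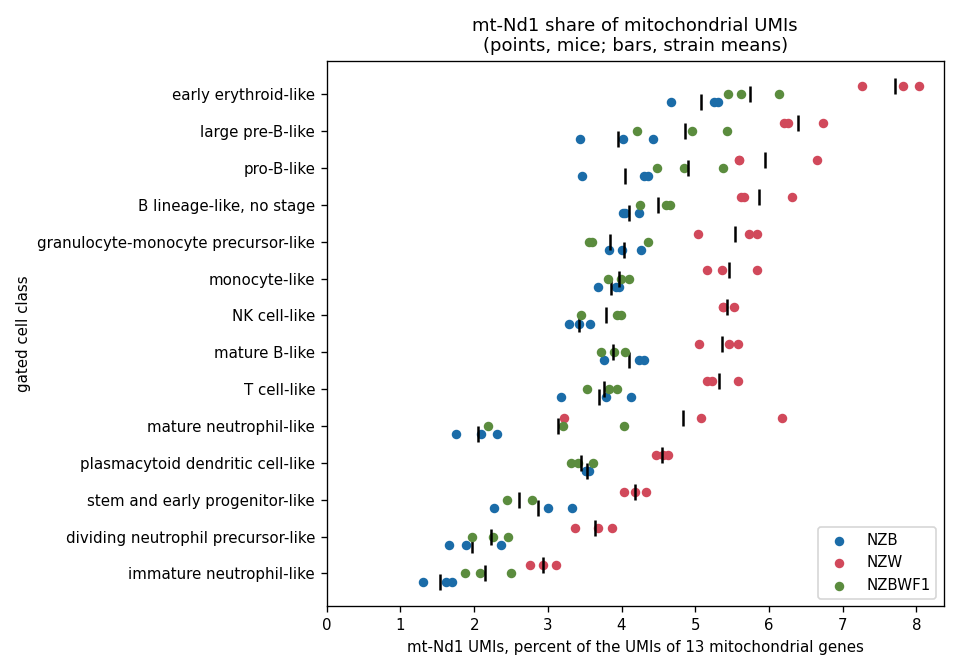
mt-Nd1 in each of the 14 classes compared between strains, as percent of the UMIs of the 13 mitochondrial members (horizontal axis), 1 point per mouse coloured by strain, with bars at the strain means. The 3 NZW mice lie above the 3 NZB mice in 14 of 14 classes and above the NZBWF1 mice in 13, mature neutrophil-like cells excepted.

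The other mitochondrial members were called in fewer classes than mt-Nd1. mt-Co1, the catalytic subunit of complex IV, was called lower in NZB than in NZW in 6 classes (stem-like -0.68, NK-like -0.60, GMP-like -0.59, plasmacytoid dendritic-like -0.48, mature B-like -0.44 and monocyte-like -0.35), and the fit was below 0 in 14 of 14. In monocyte-like cells it stood at 5996, 6613 and 5727 CPM in NZB, 7841, 7776 and 7943 CPM in NZW, and 8144, 7415 and 6979 CPM in NZBWF1. Here NZBWF1 lay with NZW and above all NZB mice, unlike mt-Nd1. mt-Co1 was called higher in NZBWF1 than in NZB in 3 classes, mature B-like (0.38), plasmacytoid dendritic-like (0.44) and monocyte-like (0.26, adjusted p = 0.0488).

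mt-Nd2, another complex I subunit, was lower in NZB in 5 classes. The largest difference was in mature neutrophil-like cells, with 102, 186 and 215 CPM in NZB, 410, 904 and 773 CPM in NZW and 210, 515 and 360 CPM in NZBWF1 (NZB against NZW -1.80, adjusted p = 0.0139). The NZB and NZW mice did not overlap, and NZBWF1 overlapped with both. In the other 4 classes it was -0.90 (dividing neutrophil precursor-like), -0.43 (NK-like), -0.40 (GMP-like) and -0.30 (monocyte-like).

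Calls for the remaining mitochondrial members were few. In GMP-like cells mt-Atp6 (-0.36), mt-Co3 (-0.35) and mt-Nd5 (-0.37) were lower in NZB than in NZW, as was mt-Atp6 in NK-like cells (-0.31). mt-Nd4 was lower in dividing precursor-like (-0.41) and immature neutrophil-like cells (-0.59), the latter with mt-Nd4l (-1.07). The members called higher in NZB were mt-Nd3 and mt-Nd6, both in monocyte-like cells. mt-Nd3 was at 408, 410 and 356 CPM in NZB, 307, 363 and 286 CPM in NZW, and 412, 409 and 434 CPM in NZBWF1 (0.31), with a small overlap. mt-Nd6 was at 15.2, 23.5 and 18.2 CPM in NZB against 13.96, 8.6 and 7.4 CPM in NZW (1.04, adjusted p = 0.00921). mt-Co2, mt-Cytb and mt-Atp8 were called in 0 classes between NZB and NZW by edgeR and in 0 by DESeq2, with 3 fits of mt-Cytb at an unadjusted p under 0.05. In dividing neutrophil precursor-like cells mt-Cytb (0.48, adjusted p = 0.003), mt-Nd2 (0.50) and mt-Nd4 (0.42) were higher in NZBWF1 than in NZB, and in plasmacytoid dendritic-like cells mt-Nd4 was higher in NZBWF1 than in NZW (0.35).

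The makeup of the mitochondrial transcripts also differed in other members. mt-Co2, a complex IV subunit, took 18.1, 18.2 and 18.2% of mitochondrial UMIs in NZB, 16.4, 15.9 and 16.1% in NZW, and 16.4, 17.1 and 17.4% in NZBWF1. mt-Cytb, the complex III subunit, took 10.95, 10.39 and 10.65% in NZB, 9.67, 9.67 and 9.10% in NZW, and 11.28, 11.15 and 11.03% in NZBWF1. For mt-Cytb the NZBWF1 mice were all above the NZW mice in 13 of 14 classes, for mt-Co2 all below the NZB mice in 14. As shares of one total, these values are not independent of mt-Nd1. In CPM the NZBWF1 mice were all below the NZB mice in 4 of 164 fits over all mitochondrial members (2.44%), where 6.73% of all fits were. They were all above the NZW mice in 22 of 164 (13.4%), where 8.54% of all fits were. The mitochondrial share of all UMIs over kept cells was 3.68, 3.92 and 3.44% in NZB, 4.06, 4.74 and 4.39% in NZW, and 4.31, 4.27 and 4.11% in NZBWF1, and the NZB mean was below the NZW mean in 14 of 14 classes, without overlap of the mice in 8.

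**Figure D4:**
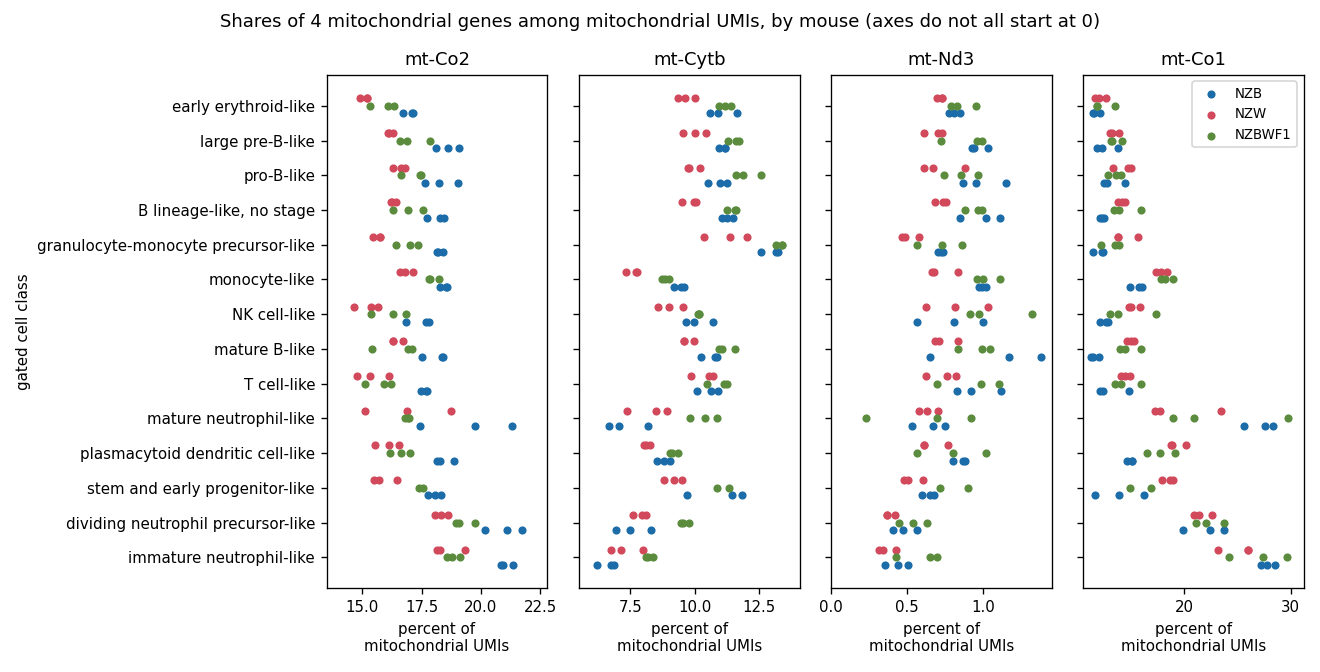
Share of the mitochondrial UMIs (percent, horizontal axes, which do not all start at 0) taken by mt-Co2, mt-Cytb, mt-Nd3 and mt-Co1 in each of the 14 classes, 1 point per mouse coloured by strain. For mt-Co2 the NZBWF1 mice lie below the NZB mice in 14 of 14 classes, and for mt-Cytb above the NZW mice in 13, T-like cells excepted.

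Monocyte-like cells held 19 of the 36 nuclear calls between NZB and NZW, and also the most calls over all genes (2037 of 6310). There 19 of 80 nuclear members were called, close to the 23.0% of all genes, and 18 of the 80 were higher in NZB, where 12.1% of all genes were. The nuclear median was 0.18 against -0.01 over all genes, and 64 of 80 were fitted above 0. By complex, 8 of 36 subunits were called in complex I, 0 of 8 in complex III (2 at an unadjusted p under 0.05), 6 of 13 in complex IV and 5 of 15 in complex V. Without NZW 3 the 19 calls became 12 (16.8% of all genes). Between NZBWF1 and NZB 15 were called, 14 of them lower in NZBWF1 (15.1% of all genes). The count was 6 without NZBWF1 2 (8.2% of all genes), 7 without NZB 2 (6.89%), 10 by DESeq2 (8.97%) and 0 with cells of at least 2000 UMIs (4.72%). Between NZBWF1 and NZW 0 were called by edgeR and 0 by DESeq2, with 0 at an unadjusted p under 0.05 (1.02% of all genes).

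The examples from this class were named after their values were seen. Ndufs5, an accessory subunit of complex I, was at 236, 215 and 210 CPM in NZB, 158, 159 and 135 CPM in NZW, and 163, 170 and 190 CPM in NZBWF1 (NZB against NZW 0.56, SE 0.109, adjusted p = 0.000274). Ndufb7, also of complex I, was at 411, 370 and 361 CPM in NZB, 301, 280 and 250 CPM in NZW, and 312, 284 and 355 CPM in NZBWF1 (0.47, adjusted p = 0.00131). Cox7a2, a complex IV subunit, was at 517, 517 and 453 CPM in NZB, 381, 380 and 347 CPM in NZW, and 424, 381 and 402 CPM in NZBWF1 (0.43). In these 3 genes the NZB mice lay above all others. For Ndufb7 the NZBWF1 mice spanned from the NZW range to just below the lowest NZB mouse.

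Atp5g1, a gene for the c subunit of complex V, was at 409, 352 and 347 CPM in NZB, 269, 298 and 242 CPM in NZW, and 317, 301 and 297 CPM in NZBWF1 (0.46, adjusted p = 0.00113). Its direction differed in the neutrophil lineage. In dividing neutrophil precursor-like cells it was at 89.6, 73.7 and 68.2 CPM in NZB, 106, 118 and 103 CPM in NZW, and 107, 122 and 105 CPM in NZBWF1 (-0.45, adjusted p = 0.0138), with all NZB mice lowest. This call was lost by DESeq2. Immature neutrophil-like cells had 21.2, 29.1 and 23.9 CPM in NZB, 53.7, 78.1 and 48.5 CPM in NZW, and 31.1, 61.7 and 59.4 CPM in NZBWF1 (-1.06, adjusted p = 0.0248).

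Cox7a2l went against the other 18 nuclear members called in monocyte-like cells. It was at 382, 379 and 349 CPM in NZB, 531, 560 and 590 CPM in NZW, and 491, 544 and 500 CPM in NZBWF1, so that NZB was lowest without overlap (-0.59, SE 0.0976, adjusted p = 3.33e-05; NZBWF1 against NZB 0.44, adjusted p = 0.00239). It was also called lower in NZB in stem-like cells (-0.65, adjusted p = 0.0167), with 349, 558 and 497 CPM in NZB and 760, 640 and 810 CPM in NZW. In GMP-like cells it was called lower as well (-0.46, adjusted p = 0.00875), with 271, 253 and 245 CPM in NZB and 270, 322 and 396 CPM in NZW, where the mice overlapped. In these 3 classes (monocyte-like, stem-like and GMP-like) every NZB mouse also had a larger share of dividing cells than every NZW mouse. Strain and cell division thus differed together there. Cox7a2l was called higher in dividing neutrophil precursor-like cells (0.36, adjusted p = 0.0301), with 146, 189 and 166 CPM in NZB against 126, 130 and 164 CPM in NZW. Tested as differences between classes of the same mice, the effect of NZB against NZW on Cox7a2l was -0.86 in GMP-like less dividing precursor-like cells (7 members called, 5.33% of all genes) and -0.99 in monocyte-like less dividing precursor-like cells (13 members called, 10.8% of all genes), pairs that were added after the data were seen. The Cox7a2l difference was called under all 20 alternatives fitted for each pair (-0.95 to -0.65 and -1.07 to -0.60). With 1 mouse left out, the members called in the GMP-like pair ranged from 4 (without NZB 2, 2.69% of all genes) to 9 (without NZB 1, 4.84%). In the monocyte-like pair they ranged from 6 (without NZB 2, 4.14%, or NZW 2, 7.33%) to 14 (without NZB 1, 10.8%), with 7 without NZW 3 (7.49%). In the pairs of classes compared earlier that could be fitted, mature neutrophil-like less dividing precursor-like (0.203% of all genes), erythroblast-like less early erythroid-like (0.302%) and monocyte-like less mature neutrophil-like (0.27%), 0 members were called by edgeR and 0 by DESeq2. The monocyte-like call was kept under every alternative fitted, and each of the other 3 calls was lost under at least 5.

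Ndufab1, the mitochondrial acyl carrier protein and a complex I subunit, was higher in NZB in 3 classes. It was at 143, 138 and 195 CPM in NZB and 67.6, 105 and 117 CPM in NZW in plasmacytoid dendritic-like cells (0.71, adjusted p = 0.0221), without overlap. In pro-B-like cells the difference was 0.82 (adjusted p = 0.0347) and in monocyte-like cells 0.36, both with overlapping mice, and the latter was 0.11 with dividing cells left out. Cox6b2 was lower in NZB in large pre-B-like cells, with 0, 3.7 and 6.0 CPM in NZB, 28.2, 24.6 and 30.2 CPM in NZW, and 15.8, 18.9 and 18.3 CPM in NZBWF1 (adjusted p = 0.0149), a call that was lost without any 1 of the NZB mice. By DESeq2 0 nuclear members were called between NZB and NZW in plasmacytoid dendritic-like, pro-B-like and large pre-B-like cells.

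The share of dividing cells, the depth and 3 genes of the list on RNA quality and handling also differed between NZB and NZW monocyte-like cells. Dividing cells made up 49.4, 73.4 and 50.3% of monocyte-like cells in NZB, 32.4, 30.3 and 30.5% in NZW, and 31.3, 27.8 and 31.9% in NZBWF1. Median UMIs per cell were 3254, 2811 and 2643 in NZB, 2174, 1631 and 1966 in NZW, and 2386, 1738 and 1910 in NZBWF1. With dividing cells left out, 18 of 77 nuclear members were called (15% of all genes), and with cells of at least 2000 UMIs 6 were (12.7% of all genes), with 0 between NZBWF1 and NZB. Of the list on RNA quality and handling, 3 of 6 genes tested were higher in NZB than in NZW and 0 lower (median 0.44): Fos (1.64, adjusted p = 0.00797), Junb (0.87, adjusted p = 5.15e-05) and Hspa1b (1.65, adjusted p = 0.0042). Fos (-1.45) and Junb (-0.63) were lower in NZBWF1 than in NZB. The summed level of the 8 genes of the RNA quality and handling list was 5599.7 to 6638 CPM in NZB, 6234 to 6541 CPM in NZW and 6459 to 7375 CPM in NZBWF1, with overlap between NZB and both others; the part of these genes in the result was not tested. The summed immature neutrophil markers in monocyte-like cells lay between 231 and 669 CPM and the B-lineage markers between 25 and 55 CPM over the 9 mice; their part was not tested.

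**Figure D5:**
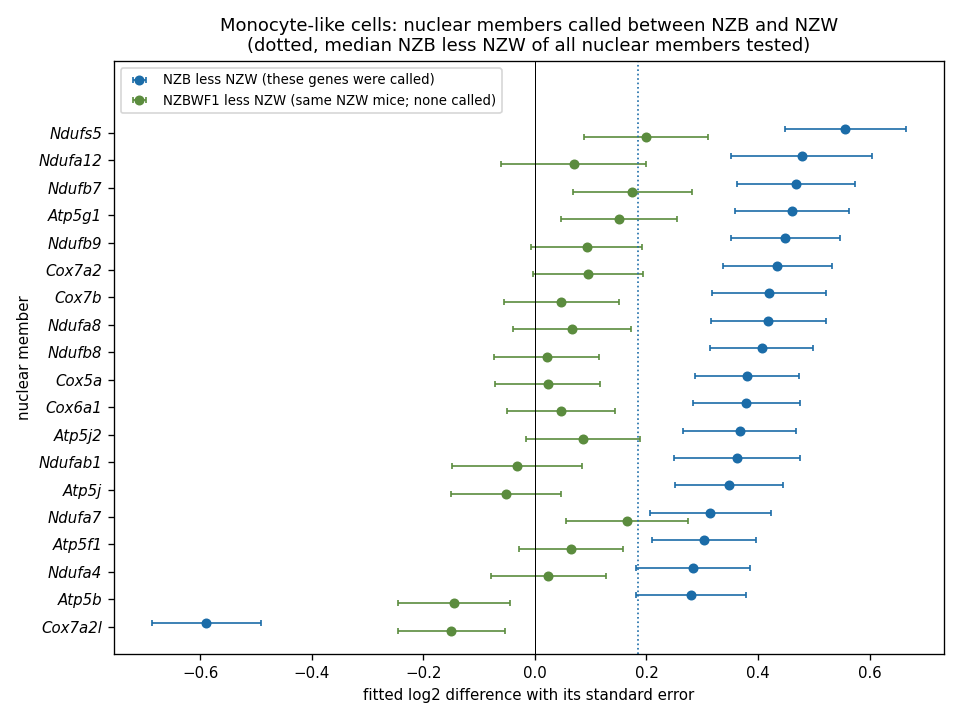
Fitted log2 fold change with its standard error (horizontal axis) of the 19 nuclear members called between NZB and NZW in monocyte-like cells, for NZB against NZW and for NZBWF1 against NZW, which share the NZW mice; the dotted line is the median of all nuclear members for NZB against NZW (0.18). The genes were plotted because they were called: 18 lie to the right of 0 for NZB, from 0.28 (Atp5b) to 0.56 (Ndufs5), and Cox7a2l to the left at -0.59, and 0 were called for NZBWF1.

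Outside monocyte-like cells, nuclear calls between NZB and NZW were few and went both ways. Dividing neutrophil precursor-like cells had 4 of 76 (10.7% of all genes), early erythroid-like 3 of 81 (9.55%), GMP-like 3 of 81 (9.73%) and immature neutrophil-like 3 of 76 (11.2%), all shares below that of all genes. By DESeq2 the nuclear calls in these classes were 0, 0, 1 and 1, in the same order. NK-like, T-like, mature B-like, mature neutrophil-like and B-lineage-like cells without a stage had 0 by edgeR and 0 by DESeq2, with 1 to 5 at an unadjusted p under 0.05 (2.86%, 2.06%, 2.69%, 2.86% and 2.78% of all genes in the same order). In GMP-like cells Ndufs3, a core subunit of complex I, was higher in NZB (0.44). In early erythroid-like cells Uqcrq, of complex III, was lower (-0.28), and Ndufb10 (0.29) and Ndufa7 (0.35) were higher. These 4 were chosen after their values were seen.

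NZBWF1 was also set against the mean of its parents. Of the mitochondrial fits 0 of 164 were called by edgeR, with 23 at an unadjusted p under 0.05 and 3 called by DESeq2, and of the nuclear fits 1 of 1014 was, where 0.522% of all fits were. That gene was the assembly factor Ndufaf4 in mature B-like cells, with 50.3, 163 and 53.1 CPM in NZB, 61.9, 49.0 and 79.7 CPM in NZW, and 25.6, 9.9 and 22.1 CPM in NZBWF1 (-1.65, adjusted p = 0.0469). The NZBWF1 mice were below all parents, and the call was absent under 7 alternatives that kept all mice, in 2 of which mature B-like cells had too few mice to be fitted.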

How the data were processed

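Libraries of femur bone marrow from 9 mice were made with a 3′ single-cell kit (v3.1), and the authors counted UMIs per gene and barcode and merged the libraries with Cell Ranger 3.1.0 (bcl2fastq 2.20, build mm10, per the submitters' processing notes). The deposited values are raw UMI counts over 31053 genes; no source used here states the annotation, or whether merging thinned the libraries. Barcode suffixes were read as positions in the deposited list of libraries, as Cell Ranger numbers them.

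Limits were 1000 UMIs, 500 genes and 10% mitochondrial UMIs, and the highest doublet scores were removed, 0.8% per 1000 barcodes. A marker was detected when its UMIs had a Poisson probability under 0.01 from free RNA, taken from barcodes with fewer than 100 UMIs. A class needed 3 detected markers, the highest share of its list, and no other lineage with 3; dividing cells needed 3 markers of division, and B stages followed Dntt, Rag1, Rag2 and mature B genes. Sums of UMIs were made over the cells of a class in each mouse, with at least 10 cells required.

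Sums were tested with the edgeR 4.0.16 quasi-likelihood method (R 4.3.3, TMM, filterByExpr, robust), strains without covariates and pairs of classes with the mouse as a block, with Benjamini-Hochberg adjustment over all genes tested and a call at 0.05, and for pairs of classes at least 1.5-fold. Alternatives covered limits, doublets, markers, shared barcodes, dividing cells, free RNA, abundant genes, DESeq2 1.42.0, library totals, the filter on low counts, the omission of each mouse, and a replicate block. Named genes were every mitochondrial member, nuclear members called in at least 3 classes in 1 direction, the 3 largest rises and falls per pair of classes, and listed restricted genes and copies; others are marked as chosen after their values were seen. Members, lists and tests were chosen with earlier results of these data known. On simulated counts the monocyte-like fit recovered 36.9% of genes changed 1.5-fold and 77.6% of genes changed 2-fold. UMI counts vary by counting error as well as between mice. The SDs are over mice, and the SEs by edgeR were derived from the fitted log2 fold change and its F statistic. The result for 1 member is not reported here.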

Additional observations from a re-analysis of the deposited data

Results flagged for a closer look

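By an edgeR test of the difference with the mouse as a block, the effect of NZB against NZW differed between GMP-like and dividing neutrophil precursor-like cells for 7 members (5.33% of all genes), and between monocyte-like and dividing neutrophil precursor-like cells for 13 (10.8% of all genes), in pairs of classes added after the data were seen. Of these, 2 were also called in both classes in opposite directions. Those calls had been seen when the pairs were added, so the test of the difference is no separate support for them. By DESeq2 0 nuclear members were called between NZB and NZW in dividing neutrophil precursor-like cells. Cox7a2l was lower in NZB in GMP-like (-0.46) and higher in dividing neutrophil precursor-like cells (0.36), a difference of -0.86 on the log2 scale, and for monocyte-like against dividing neutrophil precursor-like cells the difference was -0.99. Atp5g1 was higher in NZB in monocyte-like (0.46) and lower in dividing neutrophil precursor-like cells (-0.45), a difference of 0.86.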

How the results depend on the processing

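Of 2389 values of 118 results for single genes under 22 alternatives, 2040 kept their direction and their side of the threshold, 343 lost the call and 6 turned. With library totals as the scale, plasma-like against mature B-like cells turned from 43 higher nuclear members to 2 (Atp5g3 -1.50, Ndufs5 -0.48, Cox6a1 -0.997, Ndufab1 -1.04, Atp5g1 -0.60), with 11 mitochondrial members called in place of 0, or 1 with abundant genes left out. Totals differed from TMM by -2.29 in the median of all genes there. Ndufa13 in monocyte-like against mature neutrophil-like cells turned to 0.24, where the median of all genes moved by 0.86. The cause of other changes was not tested.

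With a mitochondrial limit of 5%, the calls between NZB and NZW were 18 mitochondrial, with mt-Nd1 called in 7 classes (of 11 fitted) and 29 nuclear members in monocyte-like cells (26.8% of all genes); 2 nuclear fits were called between NZBWF1 and NZW, and 2 mitochondrial and 0 nuclear against the parents' mean. With at least 2000 UMIs per cell the calls between NZB and NZW were 19 and 15, with mt-Nd1 in 8 classes (of 10 fitted) and 6 nuclear members in monocyte-like cells (12.7% of all genes); between NZBWF1 and NZB they were 2 and 1, with 0 nuclear members in monocyte-like cells (4.72% of all genes); between NZBWF1 and NZW 4 mitochondrial, and against the parents' mean 0 nuclear. DESeq2 called 18 nuclear fits between NZB and NZW, 10 between NZBWF1 and NZB, and 3 mitochondrial and 0 nuclear against the parents' mean. Library totals gave 11 mitochondrial calls between NZBWF1 and NZB and 3 and 0 against the parents' mean, for which no filter on low counts gave 1 mitochondrial call, and at least 2 markers and no shared barcodes 0 nuclear calls.

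Between mature and dividing neutrophil classes, mitochondrial calls were 1 without a mitochondrial limit, 2 with doublets kept, 2 with library totals and 9 without the filter on low counts. Between pre-B-like classes the falling nuclear members were 8 at the 5% limit, 18 with 2 markers, 18 with totals and 51 without the filter, and mitochondrial calls were 1 at the 5% limit and 1 without the filter. In erythroid classes 3 nuclear members fell without a mitochondrial limit and 3 at 2000 UMIs, and mitochondrial calls were 0 without the limit, 0 with 2 markers, 0 by DESeq2, 2 with totals and 2 without the filter. With abundant genes left out, mitochondrial and nuclear shares were 7.17% and 3.38% in GMP-like, 2.50% and 2.43% in immature neutrophil-like, 8.12% and 1.85% in mature B-like and 7.44% and 3.04% in plasma-like cells. At the 5% limit they were 3.98% and 2.31% in GMP-like cells, with 4.48% mitochondrial in mature B-like cells, whose values were 6.95% without a limit and 1.59% nuclear with mitochondrial UMIs left out of the total.

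Same-numbered mice did not deviate together in monocyte-like (correlations -0.0848 to 0.0273) and GMP-like cells (-0.0904 to 0.00315), and in immature neutrophil-like cells 6 of 9 pairs were over 0.1, where 6 of 9 mice correlated best with their own number. With the replicate block the calls were 44 mitochondrial and 40 nuclear between NZB and NZW, 11 and 25 between NZBWF1 and NZB, 11 and 0 between NZBWF1 and NZW, and 1 and 0 against the parents' mean; mt-Nd1 was called in 14 classes, mature neutrophil-like cells included (-2.11 with the block).

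Leaving out 1 mouse, calls between NZB and NZW ranged from 22 to 38 (mitochondrial) and 18 to 44 (nuclear, lowest without NZB 2, and 21 without NZW 2 or NZW 3), between NZBWF1 and NZB from 4 to 6 and 7 to 23, between NZBWF1 and NZW from 5 to 13 and 0 to 0, and against the parents' mean from 0 to 2 and 0 to 1. mt-Nd1 was called in 11 to 14 classes. Nuclear calls in monocyte-like cells ranged from 12 to 20 for NZB against NZW (13.3% to 23.8% of all genes), with 12 without NZW 3 (16.8%). For NZBWF1 against NZB they ranged from 6 to 17 (6.89% to 16.8% of all genes), with 6 without NZBWF1 2 (8.2%). In the pairs of classes, nuclear and mitochondrial counts ranged from 42 to 49 and 2 to 6 (neutrophil), 25 to 35 and 0 to 0 (pre-B), 31 to 48 and 0 to 1 (plasma), 3 to 6 and 0 to 1 (erythroid), and 47 to 49 and 10 to 11 (monocyte); members whose strain difference varied between classes ranged from 0 to 2 in the pairs compared earlier, 4 to 9 in GMP-like less dividing precursor-like cells and 6 to 14 in monocyte-like less dividing precursor-like cells. In these last pairs, added after the data were seen, 2.69% to 5.44% and 4.14% to 10.8% of all genes were called with 1 mouse left out. Library totals gave 21 and 22 members there (7.88% and 11.7% of all genes). For the monocyte-like pair DESeq2 gave 3 (2.72%) and 2000 UMIs 3 (2.95%). Depth limits the rarer members and classes: NK-like, T-like, mature B-like and mature neutrophil-like cells could not be fitted at 2000 UMIs. At the mitochondrial limit of 5%, mature B-like, plasmacytoid dendritic-like and stem-like cells could not be fitted.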
